A study of Rattus norvegicus with 9 samples.

Results

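The transporters that carry organic ions, drugs and lipids across membranes were compared between rat kidneys that were not perfused (NP) and kidneys perfused with mesenchymal stromal cells (MSC). The set was taken by name. It holds each gene of the array whose name begins with Slc22a, Slc47a or Slco, or is Abca, Abcb, Abcc, Abcd or Abcg followed by a digit. This gave 86 of the 26115 genes on the array, through 105 of its 30367 gene probes. A filter on dim probes kept 57 of the 86 genes, among 13929 genes kept in all. Tap1, Tap2 and Cftr, which belong to the same protein superfamily, fall outside the rule because of their names.

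Each array measured the RNA of 1 kidney of an F344 donor rat after 20 min. of warm ischaemia, and the methods describe removal of the left kidney. The 5 NP kidneys were placed in RNAlater without perfusion. The 4 MSC kidneys were perfused for 4 hrs at 4°C with Belzer solution that held 3000000 MSC, grown from the bone marrow of Sprague Dawley rats transgenic for EGFP. Perfusion and MSC thus came together, and their effects cannot be told apart. The labels conflict on the NP kidneys: the treatment field gives them as not perfused, and the titles as perfused with Belzer solution for 4 hrs. A further MSC array was discarded by the authors and was not analysed here. In whole kidney RNA, fewer cells of a type and less RNA per cell cannot be told apart.

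In the kidney, these transporters are best known from the proximal tubule, the segment that secretes drugs and waste into the urine. Organic anions enter its cells from the blood through Slc22a6 and Slc22a8, in exchange for dicarboxylates, and organic cations enter through carriers such as Slc22a2, driven by the membrane potential. They leave into the urine through the proton exchanger Slc47a1 and through ABC pumps, which spend ATP. Many other ABC proteins carry lipids, haem precursors or fatty acids within the cell, and a few, such as Abcc8, are not pumps but regulators of a potassium channel.

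The array reads each gene through probes of 60 bases, whose positions the files give on rn4. The probes shown here belong to the 7 transporters with the smallest p-values, so that what was measured is plain. The Slc47a1 probe lies at chr10:47514303-47514362 on the minus strand. The Abcb1b probes lie at chr4:21912155-21912214 and chr4:21912180-21912239 on the plus strand, and capitals mark the 35 bases that they share. Of the 3 Abcc1 probes past the filter, those shown lie at chr10:452585-452644 and chr10:453198-453257 on the minus strand, and the other, not shown, lies at chr10:452239-452298. The probe of Abcc6 is at chr1:96448802-96448861 and that of Abcc8 at chr1:96622574-96622633, both on the minus strand and 173.7 kb apart. Abcg3 is read at chr14:5929610-5929669 on the plus strand, and Abcg3l4 on a contig of chromosome 14 with no fixed place.
Slc47a1: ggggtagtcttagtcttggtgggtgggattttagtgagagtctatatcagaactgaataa
Abcb1b, probe kept: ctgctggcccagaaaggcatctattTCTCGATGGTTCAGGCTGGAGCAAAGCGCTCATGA
Abcb1b, other probe: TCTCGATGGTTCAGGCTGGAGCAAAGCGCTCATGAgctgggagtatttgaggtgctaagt
Abcc1, probe kept: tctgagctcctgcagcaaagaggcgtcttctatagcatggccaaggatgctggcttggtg
Abcc1, other probe: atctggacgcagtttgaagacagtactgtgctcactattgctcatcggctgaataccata
Abcc6: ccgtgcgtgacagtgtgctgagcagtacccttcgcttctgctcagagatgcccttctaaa
Abcc8: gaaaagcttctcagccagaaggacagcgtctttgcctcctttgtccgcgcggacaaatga
Abcg3: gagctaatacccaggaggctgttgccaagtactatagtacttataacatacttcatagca
Abcg3l4: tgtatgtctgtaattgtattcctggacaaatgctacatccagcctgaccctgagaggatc

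No transporter passed the test. At a false discovery rate (FDR) under 0.05 and a fold change over 1.5, limma called 0 of the 57 genes higher and 0 lower in MSC kidneys, as it did among all 13929 genes (0%). At an unadjusted p under 0.05, Abcg3, Abcg3l4 and Slc47a1 were higher in MSC kidneys, which is 3 of 57 against 6.60% of all genes. Abcb1b, Abcc1, Abcc6 and Abcc8 were lower, which is 4 of 57 against 5.10% of all genes. The FDR of these 7 genes ran from 0.34 to 0.43. Both shares are near those of all genes. Every MSC array was above every NP array for 1 of 57 transporters, Abcb9, against 3.13% of all genes, and below for none, against 2.13%.

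Among the 57 genes, 31 had a positive log2 fold change (MSC over NP) and 26 a negative one, with a median of 0.03. Over all genes 48.6% were positive and the median was -0.01. The transporters ran from -0.56 (Abcc1) to 0.43 (Abcg1), and 23 of them lay within 0.10 of zero on the log2 scale. This is 40.4% of the transporters against 43.8% of all genes.

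**Figure D1:**
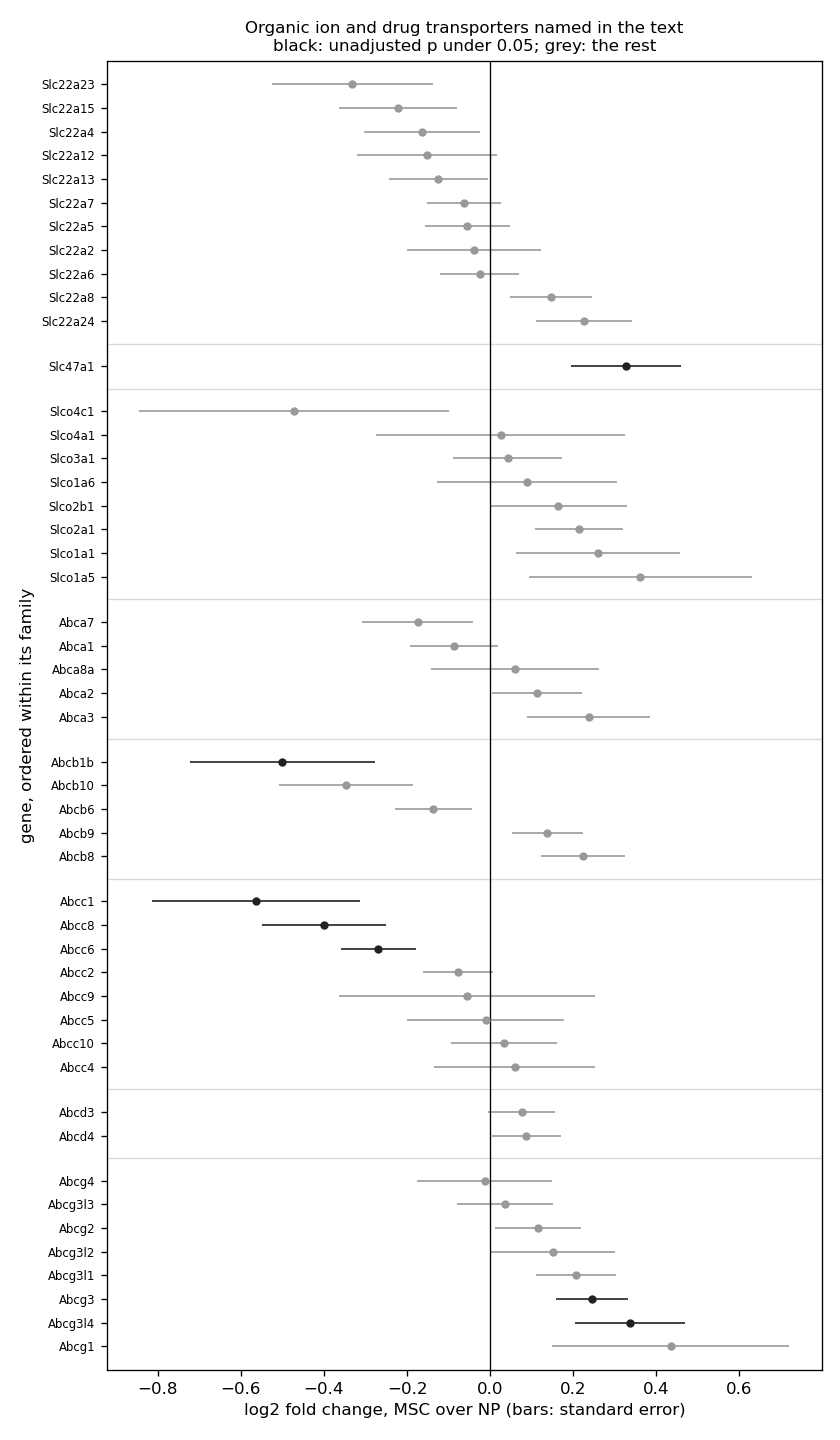
Log2 fold change (MSC over NP, horizontal axis) of the 48 of 57 transporter genes kept by the filter that are named in the text, grouped by family and ordered within it, with standard errors as bars. The 7 genes in black have an unadjusted limma p under 0.05; all 57 had an FDR above 0.05.

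The families leaned different ways. In the Slc22a family, the organic anion and cation carriers, 11 of 16 genes were lower, with a median log2 fold change of -0.05, and 8 of 16 with array weights. That median ran from -0.08 to -0.02 when 1 array was left out in turn. In the Slco family, the organic anion transporting polypeptides, 7 of 8 were higher, with a median of 0.13 that came to 0.005 without NP replicates 1 and 2. The Slco count was 4 of 8 without NP replicates 1 and 2, without MSC replicates 3 and 4, and with array weights. In the Abcc family, which holds the multidrug resistance proteins, 6 of 8 were lower (median -0.07), 5 of 8 after scaling to the 75th percentile and 8 of 8 without MSC replicate 3. With 1 array left out in turn the Abcc median ran from -0.16 to -0.03. In the Abcg family, which holds Abcg2 and the sterol pump Abcg1, 7 of 8 were higher (median 0.18), and 6 of 8 with the processed signal scaled to the 75th percentile. The Abca, Abcb and Abcd families were mixed, with 4 of 7, 3 of 6 and 2 of 3 genes higher and medians of 0.03, 0.00 and 0.08. The Abca and Abcb medians changed sign under some alternatives, and the Abcd median was -0.007 after median scaling.

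As a mean of its genes, each centred over the 9 arrays, the Abcg family stood between -0.14 and 0.03 on the NP arrays and between 0.02 and 0.18 on the MSC arrays. The Abcc mean ran from -0.17 to 0.17 on the NP arrays and from -0.20 to -0.03 on the MSC arrays. Its low NP value was NP replicate 1, and the other 4 NP arrays, at 0.09 to 0.17, were above every MSC array. NP replicate 1 was also lowest for Slco, at -0.48 against 0.04 to 0.14 on the other NP arrays. On the NP arrays Abca ran from -0.32 in replicate 1 to 0.33 in replicate 2. These families' members share arrays, so their values are not independent of each other.

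**Figure D2:**
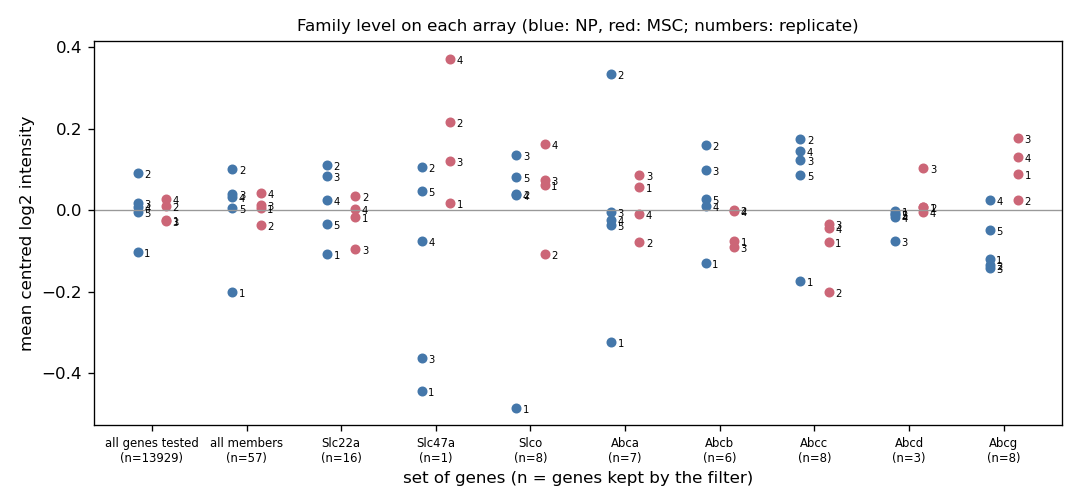
Mean of the centred log2 intensities of each family (vertical axis) on every array, in blue for NP and in red for MSC, with replicate numbers beside the points and the number of genes under each family. NP replicate 1 is low in most families, and the groups overlap in the Abcg family by less than 0.01.

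NP replicates 1 and 2 stood apart from the other arrays. NP replicate 1 had the lowest value of 19 of the 57 transporters (33.3%, against 25.7% of all genes) and NP replicate 2 the highest value of 15 (26.3%, against 28.8%). Their mean Pearson's r across genes with the arrays of their group was 0.979 and 0.978, against 0.988 to 0.992 for the others. In 45 of the 57 genes the SD was larger among NP than among MSC arrays, as in 73.8% of all genes. MSC replicates 3 and 4 were high in fat markers, with mean centred values of 2.58 and 1.71 against -1.26 to 0.14 on the other arrays.

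The 5 carriers listed for uptake of organic ions from the blood had log2 fold changes between -0.47 and 0.15, and 0 of 5 were at an unadjusted p under 0.05, against 6.60% of all genes higher and 5.10% lower. Slc22a6, the organic anion exchanger known as OAT1, had a mean normalized log2 intensity of 18.18 ± 0.17 (SD, n = 5) in NP and 18.15 ± 0.03 (SD, n = 4) in MSC kidneys. NP replicates 1 to 5 read 17.89, 18.26, 18.28, 18.28 and 18.16, and MSC replicates 1 to 4 read 18.12, 18.16, 18.14 and 18.18. The MSC arrays lie within the NP range, and the log2 fold change was -0.02 ± 0.10 (SE, limma FDR = 0.94).

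Slc22a8, or OAT3, is 14.7 kb from Slc22a6 on chromosome 1. Its NP arrays read 17.45, 17.59, 17.73, 17.89 and 17.80, and its MSC arrays 17.76, 17.83, 17.86 and 17.89. The MSC arrays sit at the top of the NP range, with a log2 fold change of 0.15 ± 0.10 (SE, limma FDR = 0.58).

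Slc22a2 (OCT2), a carrier of organic cations, had a log2 fold change of -0.04 ± 0.16 (SE). Slc22a2 differed between the slides among the NP arrays. NP replicates 1 to 3, on the first slide, read 16.05, 16.15 and 16.25, and NP replicates 4 and 5, on the second, read 15.66 and 15.65. MSC replicates 1 and 2 read 15.93 and 15.98 on the first slide, and MSC replicates 3 and 4 read 15.58 and 16.16 on the second. Within the first slide the log2 fold change was -0.19 and within the second 0.22.

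Slco4c1, a carrier of digoxin and thyroid hormone on the blood side of the tubule, had the widest spread of the set. It ran from 9.12 in NP replicate 1 to 11.19 in NP replicate 2, whereas the MSC arrays read 9.31, 9.91, 9.19 and 10.03. The MSC range lies inside the NP range. Its log2 fold change of -0.47 ± 0.37 (SE, limma FDR = 0.64) is among the largest of the 57 genes and is not distinguishable from zero. Under 30 alternatives of processing and arrays the Slco4c1 value ran from -0.71 to -0.19.

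All 5 carriers listed for exchange and reabsorption at the urinary side were lower in MSC kidneys, by amounts within the spread. The log2 fold change was -0.16 ± 0.14 (SE) for Slc22a4, a carrier of ergothioneine and organic cations. The carnitine carrier Slc22a5 had -0.05 ± 0.10. Slc22a12, the urate exchanger URAT1, had -0.15 ± 0.17, and the carriers Slc22a7 and Slc22a13 had -0.06 ± 0.09 and -0.13 ± 0.12. Their FDR ran from 0.67 to 0.86, and on every one the groups overlap. Slc22a4 showed the slide pattern of Slc22a2, with 11.97, 12.04 and 12.11 on the first slide's NP arrays against 11.59 and 11.63 on those of the second.

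Of 5 genes kept for efflux into the urine, 1 was higher and 1 lower at an unadjusted p under 0.05, against 6.60% and 5.10% of all genes. Slc47a1 (MATE1), the exchanger that releases organic cations for protons, was 1.25-fold higher in MSC kidneys. NP replicates 1 to 5 read 13.46, 14.01, 13.54, 13.83 and 13.95, and MSC replicates 1 to 4 read 13.92, 14.12, 14.02 and 14.28. NP replicates 2 and 5 reach into the MSC range. The log2 fold change was 0.33 ± 0.13 (SE, limma FDR = 0.40).

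This difference had the same sign within both slides, at 0.35 on the first and 0.26 on the second. It was 0.31 without NP replicates 1 and 2 and 0.26 without MSC replicates 3 and 4. The unadjusted p was not under 0.05 within either slide, without MSC replicates 3 and 4, or without NP replicate 1 or 3 or MSC replicate 2 or 4 in turn. Slc47a2, the other member of the family, was not kept by the filter and was well above background on 1 of 9 arrays.

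Abcb1b, which encodes a rat form of the drug pump P-glycoprotein, was 1.41-fold lower in MSC kidneys. The NP arrays read 11.43, 12.80, 12.11, 11.95 and 12.08, and the MSC arrays 11.52, 11.74, 11.61 and 11.42. NP replicate 1 falls among the MSC arrays, whereas the other 4 NP arrays are above all of them.

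The log2 fold change of Abcb1b was -0.50 ± 0.22 (SE, limma FDR = 0.43). Without NP replicate 1 it was -0.66, without NP replicate 2 it was -0.32, and without both it was -0.47. Leaving out any 1 array other than NP replicate 1 took its unadjusted p above 0.05. Its second probe gave -0.55 ± 0.21 (SE), and as the probes share 35 bases, this is not an independent reading. Abcb1a, the paralog 116.2 kb away, was well above background on all 9 arrays but did not pass the filter. Without the filter its log2 fold change was 0.07 ± 0.04 (SE).

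The other pumps of this membrane had smaller log2 fold changes. Abcg2 (BCRP), which exports urate and drugs, had a log2 fold change of 0.11 ± 0.10 (SE). For Abcc2 (MRP2), which exports glutathione conjugates, it was -0.08 ± 0.08. Abcc4 (MRP4), a pump of cyclic nucleotides and organic anions, had 0.06 ± 0.19 with the probe kept and -0.12 ± 0.12 with the other probe.

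**Figure D3:**
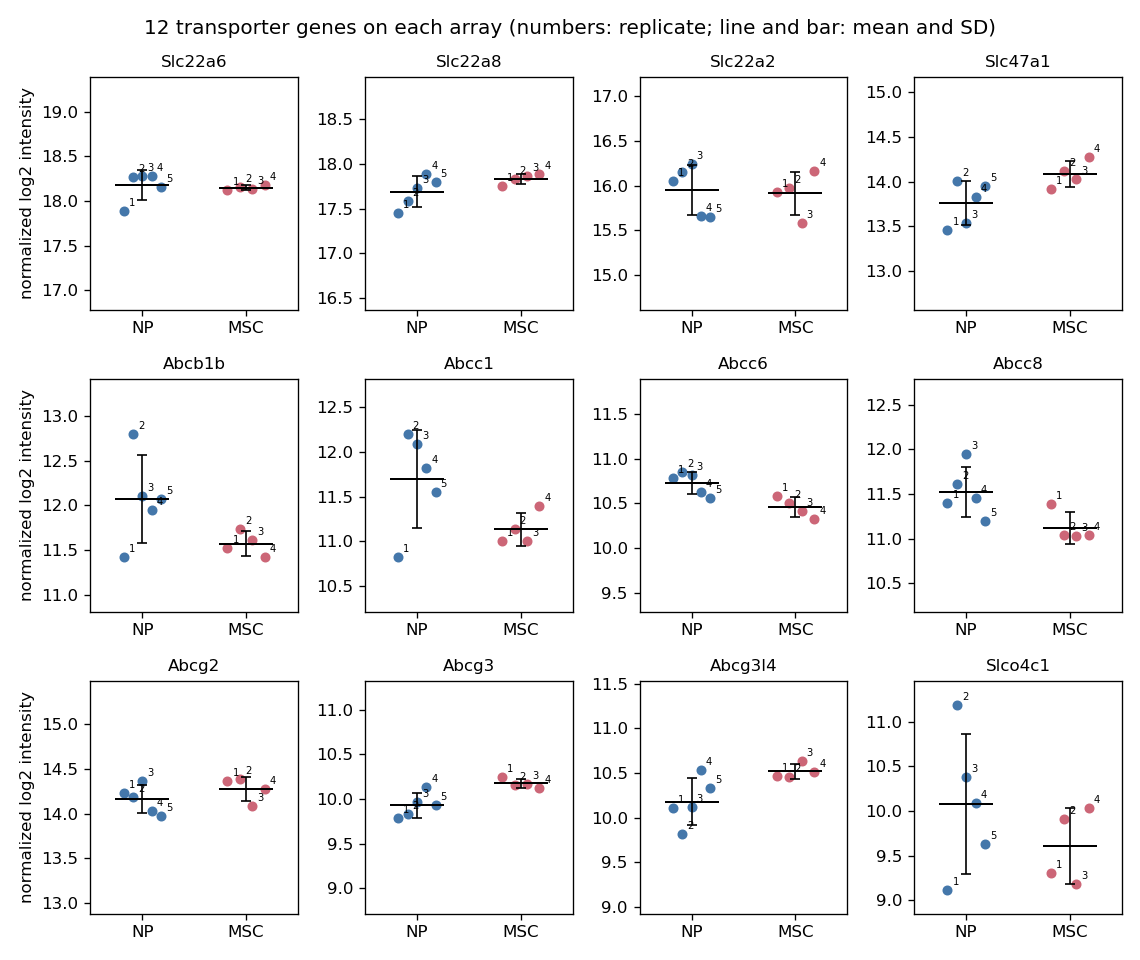
Normalized log2 intensity (vertical axes, all of the same length) of 12 transporters on each array, with NP in blue, MSC in red and replicate numbers beside the points; lines and bars are means and SDs. Slc22a6 is level, Abcb1b and Abcc1 are high on NP replicates 2 to 5, and Slco4c1 spreads widely in NP.

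Among the multidrug resistance proteins, Abcc1 and Abcc6 were lower in MSC kidneys. Abcc1 (MRP1), which exports glutathione conjugates and leukotriene C4 at the blood side of many cells, had the lowest log2 fold change of the set. The NP arrays read 10.83, 12.20, 12.09, 11.81 and 11.55, and the MSC arrays 11.00, 11.13, 11.00 and 11.39. As for Abcb1b, NP replicate 1 is low, here below every MSC array, and the other 4 NP arrays are above all MSC arrays. The log2 fold change was -0.56 ± 0.25 (SE, limma FDR = 0.42), or 1.48-fold lower.

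Leaving out 1 array in turn gave Abcc1 values from -0.78 (without NP replicate 1, limma FDR = 0.14) to -0.44 (without NP replicate 2). The unadjusted p was under 0.05 without NP replicate 1 or MSC replicate 4, and not without any of the other 7 arrays. Without NP replicates 1 and 2 together the value for Abcc1 was -0.69. Its other probes past the filter gave -0.47 ± 0.20 (SE) and -0.25 ± 0.18 (SE), so the sign held and the size depended on the probe. A further Abcc1 probe was well above background on 3 NP and 0 MSC arrays and did not pass the filter.

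Abcc6, an ATP-dependent pump of liver and kidney whose loss causes ectopic calcification, had a small difference with little spread. It read 10.78, 10.85, 10.81, 10.63 and 10.56 on the NP arrays and 10.59, 10.50, 10.41 and 10.33 on the MSC arrays. Only MSC replicate 1 reaches into the NP range, just above NP replicate 5. Its log2 fold change was -0.27 ± 0.09 (SE, limma FDR = 0.34), and -0.27 and -0.22 within the slides. It was -0.17 with array weights, -0.18 without MSC replicates 3 and 4 and -0.21 without NP replicates 1 and 2, and none of these or the values within a slide was at an unadjusted p under 0.05.

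Abcc5 and Abcc10 had log2 fold changes of -0.01 ± 0.19 (SE) and 0.03 ± 0.13 (SE). Abcc5 (MRP5) went opposite ways on the slides, at -0.34 on the first and 0.35 on the second. Abcc3 (MRP3) was well above background on all 9 arrays but dim, and without the filter its log2 fold change was -0.02 ± 0.06 (SE).

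Abcc8, the sulphonylurea receptor SUR1, is best known as the regulatory subunit of the potassium channel that ATP closes in pancreatic beta cells. Its NP arrays read 11.40, 11.62, 11.95, 11.45 and 11.20, and its MSC arrays 11.39, 11.04, 11.03 and 11.04. MSC replicate 1 lies inside the NP range and the other MSC arrays below it. The log2 fold change was -0.40 ± 0.15 (SE, limma FDR = 0.38). It was -0.29 with array weights and -0.31 without MSC replicates 3 and 4, neither at an unadjusted p under 0.05. The related receptor Abcc9 (SUR2) had -0.06 ± 0.31 (SE), with NP arrays spread from 9.45 to 11.32.

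Of the 8 organic anion transporting polypeptides kept, Slco4c1, given above, was the one with a negative log2 fold change. Slco1a1, Slco1a6, Slco2a1, Slco2b1, Slco3a1 and Slco4a1 had log2 fold changes of 0.26 ± 0.20, 0.09 ± 0.22, 0.21 ± 0.11, 0.16 ± 0.17, 0.04 ± 0.13 and 0.03 ± 0.30 (SE). Single arrays moved the smaller of these values. Slco1a6 was at -0.10 without NP replicate 1, Slco2b1 at 0.01 without MSC replicate 3 and Slco3a1 at -0.02 without NP replicate 3. Slco4a1 ran from -0.13 without MSC replicate 3 to 0.36 without MSC replicate 2. The larger value of Slco1a1 ran from 0.16 without NP replicate 1 to 0.43 without NP replicate 3. The prostaglandin carrier Slco2a1 had an FDR of 0.47. Slco1a5 had 0.36 ± 0.27 (SE), and its NP arrays ran from 10.79 in replicate 1 to 12.31 in replicate 3. The MSC arrays of Slco1a5 lay between 11.94 and 12.21. For Slco1a5 the log2 fold change was 0.13 without NP replicate 1 and -0.03 without NP replicates 1 and 2. The probe named Slco1a2, which a current name table calls Slco1a4, did not pass the filter. Without the filter it had a log2 fold change of 0.13 ± 0.05 (SE, limma FDR = 0.48).

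Sterol and phospholipid pumps went both ways, with 4 of 7 higher. Abcg1, which passes cholesterol to high density lipoprotein, had the highest log2 fold change of the 57 genes, at 0.43 ± 0.29 (SE, limma FDR = 0.57). The NP arrays read 12.20, 11.56, 11.44, 12.24 and 12.37, and the MSC arrays 12.21, 11.71, 12.61 and 13.05. Only the MSC arrays that were high in fat markers exceed the NP range. Without them the log2 fold change was -0.003.

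All 5 fat markers kept by the filter (Adipoq, Cfd, Cidec, Fabp4 and Ucp1) had positive log2 fold changes, 2 of them at an unadjusted p under 0.05 against 6.60% of all genes. Abca1, which loads cholesterol onto apolipoprotein A-I, had -0.09 ± 0.11 (SE), and Abcg4 had -0.01 ± 0.16. The lipid pump Abca3 had 0.24 ± 0.15 with the probe kept and 0.07 ± 0.07 with the other. Abca7 had -0.17 ± 0.13, Abca2 0.11 ± 0.11 and Abca8a 0.06 ± 0.20.

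The transporters of mitochondria and lysosomes include Abcb9, the one gene past the filter whose groups did not overlap in the probe kept for it. This lysosomal peptide transporter read 8.89, 8.56, 8.76, 8.77 and 8.90 on the NP arrays and 8.90, 8.90, 8.95 and 8.91 on the MSC arrays. The gap to NP replicate 5 is under 0.01 and the log2 fold change was 0.14 ± 0.09 (SE, limma FDR = 0.55). Abcb8, a mitochondrial transporter, had 0.22 ± 0.10 (SE, limma FDR = 0.43). Abcb10, which takes part in haem synthesis, went the other way, at -0.35 ± 0.16 (SE, limma FDR = 0.44), but at -0.04 within the second slide. Abcb6 had -0.14 ± 0.09.

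The peroxisomal fatty acid carrier Abcd3 and the lysosomal cobalamin transporter Abcd4 were close to level, with log2 fold changes of 0.08 ± 0.08 (SE) and 0.09 ± 0.08 (SE).

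The Abcg3 group consists of rodent relatives of Abcg2, and its probes lie on chromosome 14. All 5 of its genes had positive log2 fold changes. Abcg3 read 9.79, 9.83, 9.97, 10.14 and 9.93 on the NP arrays and 10.25, 10.15, 10.17 and 10.13 on the MSC arrays. Only NP replicate 4 reaches the MSC range, and the log2 fold change was 0.25 ± 0.09 (SE, limma FDR = 0.35). For Abcg3 it was 0.16 without NP replicates 1 and 2 and 0.27 without MSC replicates 3 and 4, neither at an unadjusted p under 0.05.

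Abcg3l4 read 10.11, 9.82, 10.12, 10.53 and 10.33 on the NP arrays and 10.47, 10.46, 10.64 and 10.51 on the MSC arrays. Again NP replicate 4 alone overlaps, and the log2 fold change was 0.34 ± 0.13 (SE, limma FDR = 0.39). For Abcg3l4 it was 0.19 without NP replicates 1 and 2, 0.28 without MSC replicates 3 and 4 and 0.18 with array weights, none at an unadjusted p under 0.05. Both genes differed less on the second slide, at 0.11 and 0.14, than on the first, at 0.34 and 0.45, though whether the slides differ was not tested. Abcg3l1, Abcg3l2 and Abcg3l3 had 0.21 ± 0.10 (SE, limma FDR = 0.44), 0.15 ± 0.15 and 0.04 ± 0.12. As these genes are close copies, cross-hybridisation among them is uncertain.

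Of the remaining carriers, Slc22a24 had the smallest p-value among the Slc22a genes that were higher, with a log2 fold change of 0.23 ± 0.12 (SE, limma FDR = 0.48). Slc22a23 had that among those that were lower, at -0.33 ± 0.19 (SE, limma FDR = 0.53). Its probe kept read 10.06 on NP replicate 2, 9.10 to 9.71 on the other NP arrays and 8.87 to 9.41 on the MSC arrays. The other probe of Slc22a23, spotted 10 times, gave -0.07 ± 0.14 (SE). Slc22a15 differed between its probes as well. The probe kept, the one with the larger variance, gave -0.22 ± 0.14 (SE, limma FDR = 0.56).

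The brighter probe of Slc22a15 read 13.71, 14.04, 13.79, 13.62 and 13.76 on the NP arrays and 13.35, 13.42, 13.44 and 13.41 on the MSC arrays. Every MSC array is below every NP array, and its log2 fold change was -0.38 ± 0.09 (SE, limma FDR = 0.33 over 15836 probes). It was named after its values were seen.

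**Figure D4:**
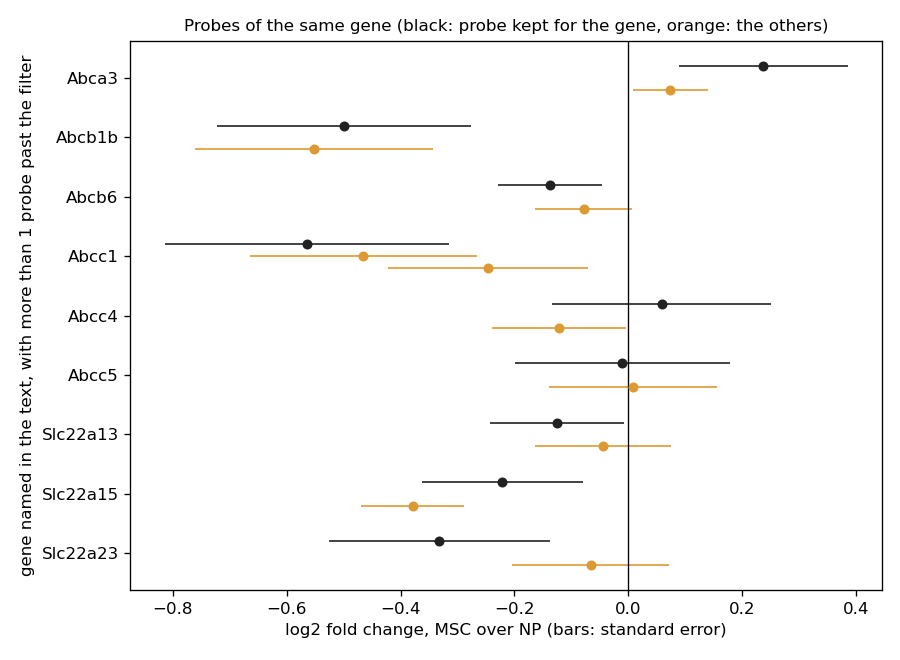
Log2 fold change (MSC over NP, horizontal axis) of each probe past the filter for the transporters named in the text with more than 1 such probe, with standard errors as bars, black for the probe kept and orange for the others. The probes of Abcb1b and Abcc1 are all below zero, whereas those of Abcc4 and Abcc5 fall on either side of it.

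The filter left out 29 of the 86 transporters. Of these, 17 were well above background on no array, 10 on some and Abcb1a and Abcc3 on all 9. They include Slco1b2, Abcb11, Abcg5 and Abcg8, which are known from the liver, and Slc22a3, Abcd2 and Slco5a1. Without the filter, 1 of the 29, the probe named Slco1a2, had an unadjusted limma p under 0.05, against 4.77% of all 26115 genes higher and 4.03% lower at that p.

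The genes around the transporters were counted from fixed lists. Of 12 driving force and partner transporters kept, 8 were higher. The dicarboxylate carrier Slc13a2 had -0.23 ± 0.08 (SE, limma FDR = 0.35). Of 14 nuclear receptors and regulators, 5 were higher and 9 lower, and the oxysterol receptor Nr1h3 was below every NP array on every MSC array, at -0.25 ± 0.08 (SE, limma FDR = 0.34). It was the 1 of 14 without overlap in that direction, against 2.13% of all genes. At an unadjusted p under 0.05 were 0 of 5 genes of the apical scaffold and 0 of 10 of glutathione conjugation, against 6.60% of all genes higher and 5.10% lower.

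All 14 markers of the proximal tubule passed the filter, and 11 of them had positive log2 fold changes, with a median of 0.14. Of the 14, the 3 genes Slc5a2, Aqp1 and Slc13a1 were higher at an unadjusted p under 0.05, against 6.60% of all genes. The mean centred value of the 14 ran from -0.34 in NP replicate 1 to 0.07 on the NP arrays and from -0.01 to 0.14 on the MSC arrays. Its part in the transporters' values was not tested. Both red cell markers kept, Hbb and Alas2, had log2 fold changes of -1.68 and -1.74, with the lowest values in MSC replicates 1 and 3, and both were lower at an unadjusted p under 0.05 against 5.10% of all genes.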

How the data were processed

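Agilent 1-colour arrays of 5 NP and 4 MSC kidneys were used, as grouped by the labels. Per the file headers, the authors read each array with Agilent Feature Extraction 10.7.3.1 and deposited the intensity of each spot, without background subtraction (mean and median) and after it (processed signal), together with a table of log2 values that they had normalized between arrays with limma. No column of per-sample values was left unused (0 columns). Here, positive control and outlier spots were left out, the mean intensity was log2 transformed and cyclic loess applied (R 4.3.3, limma 3.58.1 and version 1.17.8 of data.table). The negative control spots were normalized together with the gene spots. Probes were retained if, on 4 or more arrays, their log2 value exceeded the negative controls' 95th percentile (log2 scale) by a factor of 1.1. The authors' filter can also be read otherwise. Spots of a probe were averaged and the probe of largest variance was kept for each gene. Array by array, the lowest Pearson's r of the result with the authors' log2 table was 0.9999.

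Groups were compared by limma's linear model with empirical Bayes, two-sided, with Benjamini-Hochberg adjustment over all 13929 genes, and a call needed a fold change over 1.5 at an FDR under 0.05. Between 65.6% and 74.3% of gene spots were well above background, and the median gene spot had an intensity of 577 to 917 against 217 to 237 for the negative controls. The number of arrays limits the precision. In simulated arrays of this comparison with 13929 genes, 85% of the genes changed 2-fold and 99% of those changed 4-fold were called, with 3 false calls. The simulated noise was normal, independent between genes and of the same SD in both groups. The real arrays had outlying NP replicates and mostly larger NP SDs, so these percentages do not give the power of the real comparison. The first slide held NP replicates 1 to 3 and MSC replicates 1 and 2, the second the others. Of 105 transporter probes, 90 were found in a current RefSeq name table, and the name of 1 of them differed.

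The members, gene lists and tests were chosen with earlier results of these data known. The genes named are those with an unadjusted p under 0.05 or without overlap, the smallest p in each direction of each family, and the role lists. A few of these genes are not reported here by name, though the counts include them. Alternatives took other intensities, normalizations, filters, probes, variance models and blocks, or left out arrays.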

Additional observations from a re-analysis of the deposited data

Results flagged for a closer look

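In 5 of 114 gene and group combinations 1 array lay far from the others of its group, by the gap to its nearest neighbour as a share of the group's range. For independent normal values about 1 in 20 would be expected, or 5.7 of 114, and the count found is near that. The combinations share arrays and are not independent, and no test was made of the count. The share was 0.954 for Abcc8 in MSC replicate 1, which read 11.39 against 11.03 to 11.04 on the other MSC arrays. It was 0.908 for Abcb8 in MSC replicate 3, which read 10.63 against 10.84 to 10.86. For Abcg3l3 in MSC replicate 4 it was 0.896, with 8.47 against 8.95 to 9.01. For Slco4a1 in MSC replicate 2 it was 0.845, with 10.73 against 11.96 to 12.19. For Abcd3 in NP replicate 2 it was 0.819, with 16.49 against 16.23 to 16.28 on the other NP arrays.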

How the results depend on the processing

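Under 30 alternatives no transporter was called in either direction. Among all genes 2 were called with array weights, 4 within the second slide, 1 without NP replicates 1 and 2, and 0 under the others. The 7 transporters with an unadjusted p under 0.05 kept their sign in all 30, with between 0 and 7 of them still at that p. Without MSC replicates 3 and 4, which leaves 2 MSC arrays, the counts at that p were 0 higher and 0 lower, against 3.82% and 2.69% of all genes. The share of all genes at that p moved with the setting too, and stands in parentheses. The count higher, 3 of 57 as reported (6.60%), was 6 with the processed signal and 75th percentile scaling together (6.50%), 0 with median scaling (2.07%), 6 of 86 with no filter or with its literal reading, 10% of the 95th percentile (4.77%), 5 of 63 with a filter on spots well above background (6.15%) and 1 within the second slide (3.67%). The count lower, 4 of 57 as reported (5.10%), was 2 of 86 with no filter or its literal reading (4.03%), 7 of 68 with every probe on its own (5.12%), 2 with the slide as a block (5.68%), and 1 within the first slide (2.23%). Leaving out 1 array in turn gave 1 (without NP replicate 1, 7.36%) to 6 (without NP replicate 2, 5.98%) higher, and 1 (without MSC replicate 2, 3.84%, or MSC replicate 3, 3.30%) to 5 (without NP replicate 1, 9.28%) lower. An alternative chosen after seeing the data left out NP replicates 1 and 2, and gave 1 higher (6.32%). Of the 4 genes lower as reported, Abcb1b, Abcc1 and Abcc8 were still lower at that p there, at -0.47, -0.69 and -0.41, and Abcc6 was not. Among all genes 7.44% were lower at that p in this setting.

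The Abcd median was 0.028 with 75th percentile scaling, -0.0067 with median scaling, 0.032 within the first slide, 0.12 within the second and 0.12 without NP replicates 1 and 2. That of Slc47a was 0.033 with no filter or its literal reading, that of Abcb was -0.11 with every probe on its own, and that of Abcc was -0.18 within the second slide. The cause was not tested. With the replicate number as a block, 0 transporters and 0 of all 13929 genes were called. At an unadjusted p under 0.05, 4 transporters were higher and 5 lower, against 6.27% and 5.03% of all genes. The labels give no link between an NP and an MSC sample beyond that number. The correlations of their deviations were 0.20, 0.33, -0.35 and 0.05 for numbers 1 to 4, and 2 of 4 pairs were best matched by their own number. Samples of numbers 1, 2 and 4 also share a slide and those of number 3 do not, so pairing and slide cannot be told apart here.

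With 5 and 4 arrays and the spread between NP kidneys, differences of the size seen here could not be told from zero after adjustment over all genes. Levels of different probes cannot be compared. No background was subtracted in the values reported. With the background-subtracted processed signal scaled to the 75th percentile, which changes both the intensity and the normalization, the dim genes Abcb9 and Slco2a1 had log2 fold changes of 0.37 and 0.43 in place of 0.14 and 0.21.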

Other observations

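The ABC proteins whose names fall outside the rule were described from a list of 7, all kept by the filter, of which 5 had positive log2 fold changes with a median of 0.22. Tap2, part of the peptide transporter that loads MHC class I, read 11.32, 11.77, 10.46, 11.18 and 11.48 on the NP arrays and 11.97, 11.94, 12.07 and 11.93 on the MSC arrays. Every MSC array is above every NP array, and its log2 fold change was 0.74 ± 0.22 (SE, limma FDR = 0.33). Abcf3 and Abcf2, which have ATPase domains but no membrane part, had 0.33 ± 0.09 (SE, limma FDR = 0.33) and 0.34 ± 0.12 (SE, limma FDR = 0.35). The log2 fold change of Abcf2 was 0.03 with its brightest probe. These 3 of 7 were higher at an unadjusted p under 0.05, against 6.60% of all genes, and none passed the test.

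Markers of other nephron segments were counted as well. Of 10 collecting duct markers 9 had positive log2 fold changes and 4 were higher at an unadjusted limma p under 0.05, against 6.60% of all genes, led by the sodium channel subunit Scnn1b at 0.97 ± 0.24 (SE, FDR = 0.33). All 4 distal and connecting tubule markers kept were positive, with a median of 0.47, and 3 had such a p-value, against the same 6.60%. All 4 podocyte markers kept were negative, with a median of -0.30, and none had such a p-value, against 5.10% of all genes lower.

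Positive log2 fold changes were found for 5 of 6 thick ascending limb markers, 2 of 5 endothelial markers, 5 of 5 macrophage and leukocyte markers, 5 of 7 stromal markers and 5 of 6 tubular injury markers, with medians of 0.24, -0.05, 0.22, 0.20 and 0.29. At an unadjusted p under 0.05, 2 of 6 thick ascending limb markers and 1 of 7 stromal markers were higher, against 6.60% of all genes, and 1 of 5 endothelial markers was lower, against 5.10%. Among the macrophage and leukocyte markers and the tubular injury markers 0 had such a p-value in either direction.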
